A study of Mus musculus with 18 samples.

Results

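Contractile actin cytoskeleton genes are the 10 mouse genes Acta1, Acta2, Actc1, Actg2, Tagln, Myl9, Myl3, Cnn1, Tpm1 and Tpm2, matched by Entrez gene identifier among 36528 genes listed per library. They encode the muscle actins and proteins that bind, stabilise or pull on actin filaments. The set was chosen by the measured levels of Acta1 and Acta2, known from these libraries to be higher after BAP1 loss and to behave differently in the double knockout. The knockout and double-knockout values of the 10 genes are therefore given as a description, with no test. The untreated knockout line is the base of the knockout comparison, so its values entered the choice too. The reason for the choice does not name the C91A mutant or its untreated line, and the 10 genes were tested there. The levels of all 6 groups were at hand, though, and the genes were chosen with earlier results of these data known. Acta1, Acta2 and Tagln were already known to be among the large rises in the C91A mutant. The tests in the C91A groups are therefore no independent evidence for any of the 10.

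Polyadenylated RNA was sequenced from mouse embryonic stem cells, in 6 groups of 3 libraries. The groups were an RNF2-BAP1 double knockout treated with 4-hydroxytamoxifen, a BAP1 knockout treated with it, the untreated control of the knockout line, a knock-in BAP1 C91A mutant treated with it, the untreated control of the C91A line, and BAP1 wild type. Treatment was with 100 nM of the drug over 4 days, to make Cre recombine the engineered allele, and cells of every group received emricasan, a caspase inhibitor that protects them from death. Whether the wild-type cells received 4-hydroxytamoxifen, which promoter drove Cre, and whether a line was 1 clone are not given in the sources used here. An untreated control of the double-knockout line was not analysed here. In each treated-against-untreated comparison the drug and the recombined allele cannot be told apart, and between lines the genotype and the line cannot be told apart.

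Ubiquitin on histone H2A is placed by Polycomb complexes, with RNF2 as their catalytic ligase, and taken off by BAP1. The C91A change removes the cysteine of the BAP1 active site. Muscle actin genes and many of their partners are textbook targets of serum response factor (SRF), which binds a sequence called the CArG box. SRF acts with the cofactors Mrtfa and Mrtfb, which monomeric actin holds out of the nucleus, so that actin assembly raises transcription of the actin apparatus itself. In the embryo the same genes come on in heart, somites and smooth muscle, while cultured embryonic stem cells rely mainly on cytoplasmic actins.

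Libraries held 8.11 to 23.0 M counts (M, megacounts), and the 3 knockout libraries held 12.1, 8.11 and 18 M. Levels are given as the deposited normalized RPKM, a length-scaled value that allows comparison between genes. Fold changes are log2 ratios of counts with their standard error, from edgeR's quasi-likelihood fit over 16875 genes, and a call is a Benjamini-Hochberg adjusted p under 0.05. Between replicates, the coefficient of variation fitted in common to all genes, with counting noise left out, was 4.47%. Counting noise adds to it for single genes. Acta1 in wild type, for example, had a mean of 3.08 normalized RPKM with an SD of 0.859. The labels do not say whether replicates were separate cultures, so p-values measure the spread between these libraries, which may be technical. Bap1 was at 38.9 to 45 normalized RPKM in the double knockout, 41.3 to 42.5 in the knockout, 46.6 to 47.4 in its untreated line, 45 to 46.4 in the C91A mutant, 23.7 to 26.2 in the untreated C91A line and 47.5 to 50.9 in wild type. A whole-gene count does not show which exons the reads came from, so the Bap1 values do not check the knockout labels. Rnf2 was at 20.9 to 22.9 in the double knockout and at 28.1 to 37.8 in the 15 other libraries.

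The bases upstream of the transcription start are shown for Acta1 and Acta2, the pair whose levels parted in the double knockout, and for Actc1, which held more CArG-like sequences than either of them; no window was tabulated for Actg2. Each is 250 bases of the mouse genome build GRCm38.p6 from RefSeq, 5′ to 3′ on the gene's own strand, which is the minus strand for the 3 genes. Capitals mark CArG boxes, exact or with 1 mismatch in the central 6 bases, and the TEAD motif CATTCC read on either strand.
Acta1, chr8:123894776-123895025: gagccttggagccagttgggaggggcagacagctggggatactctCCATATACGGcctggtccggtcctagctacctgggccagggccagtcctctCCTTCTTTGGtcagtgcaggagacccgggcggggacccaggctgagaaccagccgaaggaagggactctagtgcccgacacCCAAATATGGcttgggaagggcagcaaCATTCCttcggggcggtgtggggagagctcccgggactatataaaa
Acta2, chr19:34255374-34255623: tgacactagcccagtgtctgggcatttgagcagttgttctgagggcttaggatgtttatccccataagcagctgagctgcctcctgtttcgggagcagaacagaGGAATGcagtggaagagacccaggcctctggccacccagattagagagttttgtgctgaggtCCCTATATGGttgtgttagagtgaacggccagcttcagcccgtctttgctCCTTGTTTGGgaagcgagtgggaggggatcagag
Actc1, chr2:114052876-114053125: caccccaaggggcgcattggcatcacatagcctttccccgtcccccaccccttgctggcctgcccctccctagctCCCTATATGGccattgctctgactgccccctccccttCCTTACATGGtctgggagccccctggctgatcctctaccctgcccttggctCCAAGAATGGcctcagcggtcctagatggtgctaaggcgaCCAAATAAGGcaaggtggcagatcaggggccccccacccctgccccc

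A window was tabulated for 8 of the 10 genes, and the start meant here is that of the window. For Acta1, Actc1 and Myl3 the start is the outer end of the gene's span. The window lies partly inside the gene's span for Acta2, Myl9, Tpm2 and Cnn1, and wholly inside it for Tpm1. For those genes the start used lies within the span. An exact CArG box lay in 4 of these 8, those of Acta1, Actc1, Myl3 and Myl9, against 1.47% of 32851 windows of the same length over all genes. In Acta1 it lay 73 to 64 bases before the start, in Actc1 47 to 38, in Myl3 85 to 76 and in Myl9 161 to 152. With 1 mismatch allowed, 5 of the 8 windows held one, against 8.59% of all windows, and the addition was Acta2, with one 84 to 75 and another 34 to 25 bases before the start. The TEAD motif, chosen after the sequences were seen, lay in 4 of the 8 (Acta1, Acta2, Myl3 and Tpm1), against 12.6% of all windows. These are matches of letters and not shown binding sites, and a window without a match says nothing on factors acting elsewhere.

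Acta1 (gene 11459; chromosome 8, 123891758 to 123894775 in GRCm38.p6) encodes the alpha actin of skeletal muscle. It was at 2.37, 3.6 and 2.46 normalized RPKM in the double knockout, 20.5, 20.7 and 22.3 in the knockout, and 2.37, 2.46 and 1.81 in the untreated knockout line. The knockout libraries lay far above both others, and the libraries of the double knockout overlapped those of the untreated line. In the C91A mutant it was at 52.3, 60.9 and 66.9, in the untreated C91A line at 9.19, 7.53 and 6.68, and in wild type at 4.06, 2.48 and 2.69. The C91A mutant was the highest group, and its untreated line lay above wild type with no overlap. The log2 difference was 3.25 ± 0.14 (SE) for the knockout over its untreated line, -2.95 ± 0.14 for the double knockout over the knockout, and -0.15 ± 0.18 for the double knockout over wild type. In bulk RNA, fewer cells of a type and less RNA per cell cannot be told apart, here and in all results that follow.

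Acta2 (gene 11475; chromosome 19, 34240336 to 34255585) encodes the alpha actin of smooth muscle. Its levels were 16.2, 17 and 17.2 normalized RPKM in the double knockout, 15.7, 15.2 and 15.3 in the knockout, and 1.60, 1.59 and 1.73 in the untreated knockout line. Unlike Acta1, Acta2 was high in the double knockout, where all 3 libraries lay slightly above the knockout libraries. It was at 30.6, 33.9 and 34.4 in the C91A mutant, 3.01, 3.19 and 3.32 in the untreated C91A line, and 2.30, 2.31 and 2.34 in wild type. No neighbouring groups overlapped in the order C91A mutant, double knockout, knockout, untreated C91A line, wild type, untreated knockout line. The log2 difference was 3.22 ± 0.09 for the knockout over its line, 0.13 ± 0.06 for the double knockout over the knockout and 2.85 ± 0.08 for the double knockout over wild type.

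**Figure D1:**
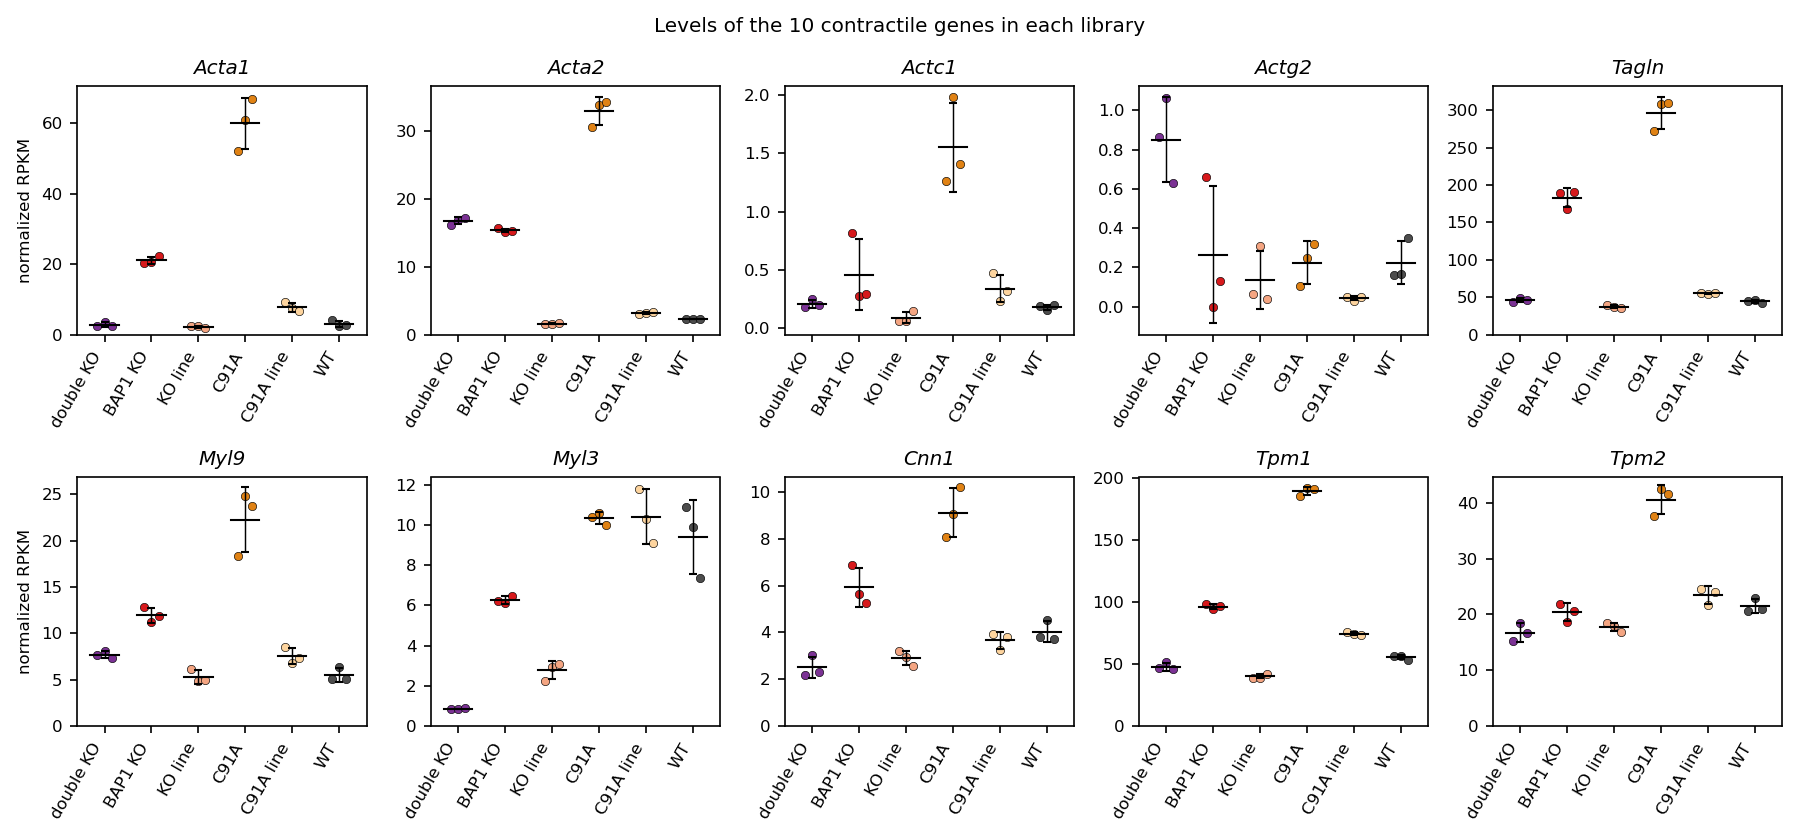
Deposited normalized RPKM (vertical axes, separate for each gene) of the 10 genes in every library, by group; points are libraries and bars are the mean with SD of 3. Acta1 in the double knockout lies at 2.37 to 3.6, with wild type at 2.48 to 4.06, while Acta2 in the double knockout lies at 16.2 to 17.2, above the knockout at 15.2 to 15.7.

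The ratio of Acta1 to Acta2 normalized RPKM was lowest in the double knockout. Acta1 and Acta2 were chosen in part because they differ there, so nothing is read from this ratio. It was 0.146, 0.212 and 0.143 in the double knockout, 1.31, 1.36 and 1.46 in the knockout, 1.48, 1.54 and 1.05 in its untreated line, 1.71, 1.80 and 1.94 in the C91A mutant, 3.05, 2.36 and 2.01 in the untreated C91A line, and 1.77, 1.08 and 1.15 in wild type. On this length-scaled measure Acta1 exceeded Acta2 in every library outside the double knockout, and Acta2 exceeded Acta1 in all 3 double-knockout libraries. In counts, which are not scaled for length, Acta2 also exceeded Acta1 in every library of the knockout, its untreated line and wild type. Which of the genes was higher therefore depends on the length scaling in those groups. The summed level of the 4 muscle actins was 19.6 to 21.9 normalized RPKM in the double knockout, 36.2 to 38 in the knockout, 3.72 to 4.42 in its untreated line, 84.2 to 103 in the C91A mutant, 10.4 to 12.7 in the untreated C91A line and 5.11 to 6.71 in wild type. Acta2 made up 81.4% ± 3.42 of that sum in the double knockout (SD, n = 3), and 41.3% ± 0.945 in the knockout.

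**Figure D2:**
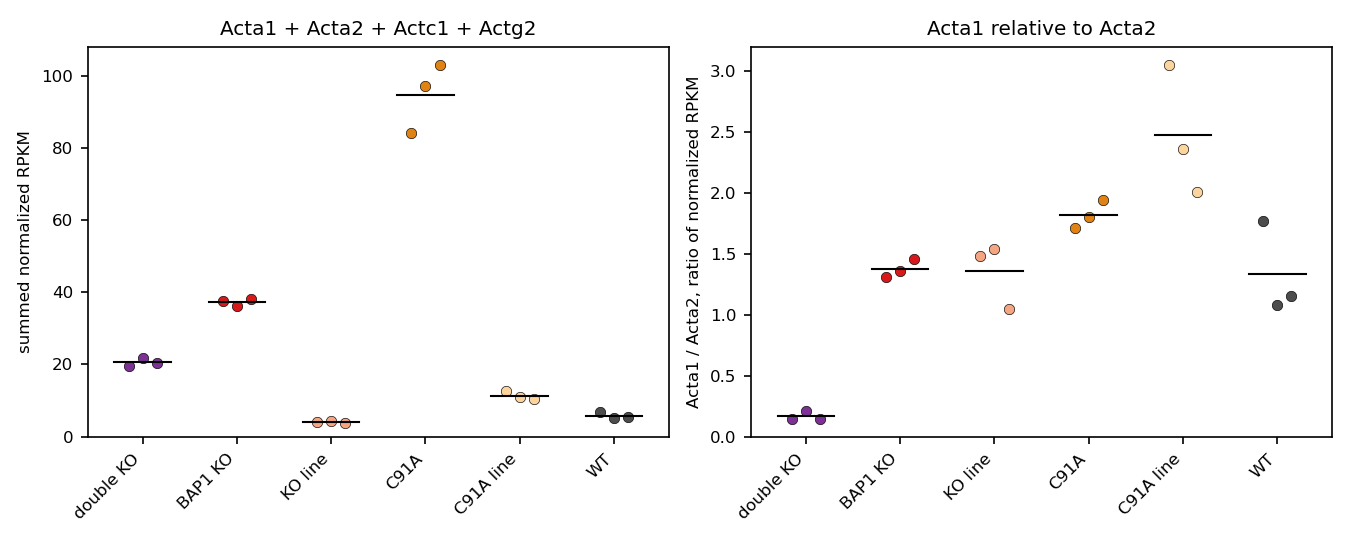
Left, the summed normalized RPKM of Acta1, Acta2, Actc1 and Actg2 in each library; right, the ratio of Acta1 to Acta2 normalized RPKM; points are libraries, lines are means of 3, groups run along the horizontal axis. The double knockout holds 19.6 to 21.9 in sum, between the knockout and wild type, with the lowest ratios, 0.143 to 0.212. The choice of Acta1 and Acta2 partly set these ratios.

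The other muscle actins were close to the detection limit. Actc1 (gene 11464; chromosome 2, 114047282 to 114052875), the cardiac alpha actin, had 4, 5 and 7 counts in the double knockout, 13, 3 and 7 in the knockout, 2, 2 and 4 in its untreated line, 26, 42 and 37 in the C91A mutant, 10, 8 and 7 in the untreated C91A line, and 5, 5 and 6 in wild type. The C91A mutant was the only group whose normalized RPKM, 1.26 to 1.98, lay above all others. The log2 difference of the knockout over its line was 2.31 ± 0.59, and it was 1.65 without knockout library 1, which held 13 of the group's 23 counts. For the double knockout over the knockout it was -1.12 ± 0.51, and -0.46 without that library.

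Actg2 (gene 11468; chromosome 6, 83512909 to 83536251), the enteric smooth muscle gamma actin, had 18, 20 and 21 counts in the double knockout, 10, 0 and 3 in the knockout, 2, 9 and 1 in its untreated line, 2, 5 and 8 in the C91A mutant, 1, 1 and 1 in the untreated C91A line, and 4, 5 and 10 in wild type. It had most counts in the double knockout, in normalized RPKM 0.630 to 1.06, where the knockout spread over 0 to 0.661 and wild type over 0.160 to 0.349. The log2 difference was 1.58 ± 0.54 for the double knockout over the knockout and 1.83 ± 0.49 over wild type. For the knockout over its untreated line it was 0.94 ± 0.73, and it turned to -0.60 without knockout library 1 and was 2.25 without library 2 of the untreated line. Its difference of the double knockout over the knockout was 3.12 without knockout library 1.

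Tagln (gene 21345; chromosome 9, 45929628 to 45936058) encodes transgelin, an actin-crosslinking protein of smooth muscle, and was the most abundant of the 10 in the knockout and the C91A mutant. It was at 43.1, 48.7 and 45.9 normalized RPKM in the double knockout, 189, 168 and 191 in the knockout, and 39.1, 37.5 and 36.1 in its untreated line. It was at 272, 308 and 310 in the C91A mutant, 55.6, 55.0 and 55.2 in the untreated C91A line and 45.5, 46.2 and 42.1 in wild type. The C91A mutant, the knockout and the untreated C91A line led in that order, as for Acta1, and the double knockout overlapped wild type. The log2 difference was 2.28 ± 0.06 for the knockout over its line, -1.99 ± 0.06 for the double knockout over the knockout and 0.03 ± 0.06 over wild type. Of the 50-base words in Tagln transcripts, 47.6% also occur in transcripts of other genes, among them its neighbour Pcsk7. Pcsk7 had log2 changes of 0.28 in the double knockout over the knockout (adjusted p = 0.0085), 0.44 in the double knockout over wild type (adjusted p = 4.8e-05), -0.06 in the knockout over its line (adjusted p = 0.58) and 0.04 in the C91A mutant over its line (adjusted p = 0.73). Its part in the Tagln values was not tested.

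Cnn1 (gene 12797; chromosome 9, 22099221 to 22109221) encodes calponin, which restrains the myosin motor on smooth muscle actin. It was at 2.19, 3.02 and 2.33 normalized RPKM in the double knockout, 6.87, 5.65 and 5.27 in the knockout and 3.19, 2.97 and 2.57 in its untreated line. The knockout libraries lay above both, and the double knockout overlapped the untreated line. In the C91A mutant it was at 8.08, 9.05 and 10.2, in the untreated C91A line at 3.93, 3.25 and 3.81 and in wild type at 3.80, 4.54 and 3.74. The log2 difference was 1 ± 0.13 for the knockout over its line, -1.24 ± 0.14 for the double knockout over the knockout and -0.71 ± 0.14 over wild type, the double knockout lying below wild type in all libraries.

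Tropomyosins lie along actin filaments and gate myosin access. Tpm1 (gene 22003; chromosome 9, 67022590 to 67049672) was at 46.7, 51.6 and 45.8 normalized RPKM in the double knockout, 98.2, 94.4 and 96.9 in the knockout and 39.2, 39.2 and 42.1 in its untreated line. It was at 186, 192 and 191 in the C91A mutant, 76.3, 74.3 and 73.4 in the untreated C91A line and 56.9, 56.6 and 53.6 in wild type. All 6 groups were separate, and the double knockout stood between wild type and the untreated knockout line. Tpm2 (gene 22004; chromosome 4, 43513726 to 43523583) differed less between groups. It was at 15.2, 18.5 and 16.6 in the double knockout, 21.9, 18.7 and 20.6 in the knockout, 18.4, 17.9 and 16.9 in its untreated line, 37.6, 42.5 and 41.5 in the C91A mutant, 24.6, 21.7 and 24.1 in the untreated C91A line and 20.7, 23.0 and 21.0 in wild type. The knockout over its line gave a log2 difference of 1.26 ± 0.04 for Tpm1 and 0.20 ± 0.07 for Tpm2, and the double knockout over the knockout gave -1.01 ± 0.04 and -0.29 ± 0.07 in the same order.

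The myosin light chains parted from each other. Myl9 (gene 98932; chromosome 2, 156775408 to 156781657), the regulatory light chain of smooth muscle myosin, was at 7.63, 8.15 and 7.34 normalized RPKM in the double knockout, 12.8, 11.2 and 11.9 in the knockout, 6.13, 4.82 and 4.98 in its untreated line, 18.3, 24.8 and 23.7 in the C91A mutant, 8.53, 6.81 and 7.35 in the untreated C91A line and 5.08, 6.39 and 5.09 in wild type. Myl9 in the double knockout was below the knockout and above wild type, with no overlap on either side, at log2 differences of -0.65 ± 0.13 and 0.46 ± 0.13. Myl3 (gene 17897; chromosome 9, 110763678 to 110769802), the essential light chain of ventricle and slow skeletal muscle, had another pattern. It was at 0.842, 0.855 and 0.879 in the double knockout, 6.20, 6.11 and 6.48 in the knockout, 2.26, 2.95 and 3.11 in its untreated line, 10.4, 10.6 and 10 in the C91A mutant, 11.8, 10.3 and 9.10 in the untreated C91A line and 10.9, 9.89 and 7.35 in wild type. Myl3 was thus lower in the knockout than in wild type, although higher than in its own untreated line (1.18 ± 0.18), and lowest in the double knockout, at -2.86 ± 0.23 against the knockout and -3.43 ± 0.20 against wild type. Of the 50-base words of Myl3, 4.19% also occur in transcripts of its neighbour Pth1r. Pth1r had log2 changes of 0.80 in the double knockout over the knockout (adjusted p = 2.7e-06), -0.25 in the double knockout over wild type (adjusted p = 0.051), 0.62 in the knockout over its line (adjusted p = 0.00069) and 0.86 in the C91A mutant over its line (adjusted p = 5.1e-09). Its part in the Myl3 values was not tested.

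All 10 genes passed the filter on low counts. Over its untreated line, the knockout was higher in all libraries for 9 of the 10, all but Actg2, and lower for none, where 33.3% of all genes tested stood higher and 33% lower. The median log2 difference of the 10 genes was 1.22, and that of all genes -0.006. The double knockout was lower than the knockout in all libraries for 8 of the 10 (31.6% of all genes) and higher for 1, Acta2 (33.7%). Without knockout library 1, or without double-knockout library 3, 2 were higher, the addition being Actg2. Their median was -1.06, and that of all genes 0.034. Against wild type the double knockout was higher in all libraries for 3 (Acta2, Actg2 and Myl9; 28.5% of all genes) and lower for 4 (Myl3, Cnn1, Tpm1 and Tpm2; also 28.5%), with a median of -0.06. These contrasts chose the genes, so nothing is read from these counts. The knockout libraries enter both the first and the second comparison, so a high knockout value raises one difference and lowers the other.

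**Figure D3:**
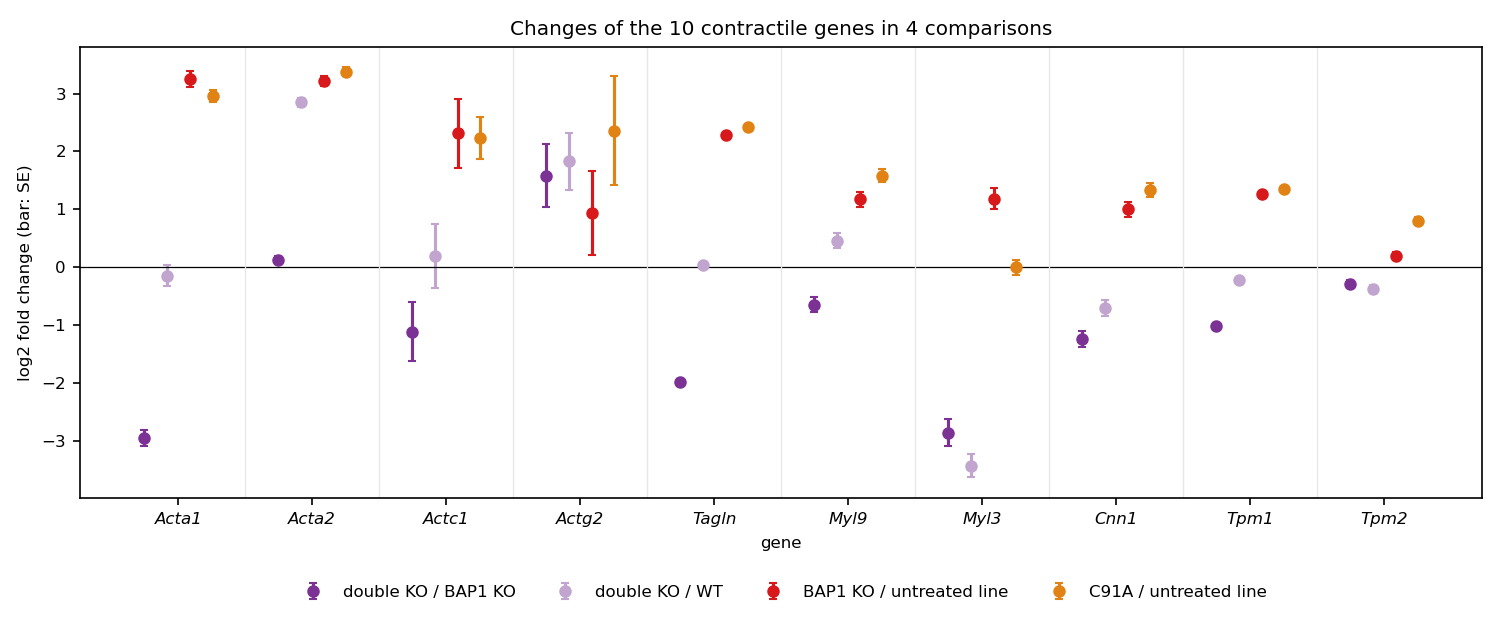
Log2 fold change (vertical axis; bars are SE) of each of the 10 genes (horizontal axis) for the double knockout over the knockout, the double knockout over wild type, the knockout over its untreated line and the C91A mutant over its untreated line. In the double knockout over the knockout, Acta1, Tagln and Myl3 lie at -2.95, -1.99 and -2.86 and Acta2 at 0.13.

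In the catalytic mutant, 9 of the 10 genes rose against the untreated C91A line and none was called lower, beside 28.6% of all genes called higher and 26.4% called lower. The median log2 change was 1.91, and that of all genes -0.007. Acta2 rose by 3.38 ± 0.07 (adjusted p = 4.8e-33), Acta1 by 2.96 ± 0.10 (adjusted p = 1.7e-25) and Tagln by 2.43 ± 0.05 (adjusted p = 1.1e-32). Actc1 rose by 2.23 ± 0.36 (adjusted p = 1e-06), with 105 counts in the 3 C91A mutant libraries and 25 in the 3 untreated ones. Myl9 rose by 1.58 ± 0.11, Tpm1 by 1.35 ± 0.04, Cnn1 by 1.34 ± 0.12 and Tpm2 by 0.80 ± 0.06, each with an adjusted p of at most 1.3e-12. Myl3 did not pass, at 0.00 ± 0.13 (adjusted p = 1). The call for Actg2 rests on 15 counts in the mutant and 3 in its line, had an adjusted p of 0.031, and was made in 5 of 12 settings (adjusted p from 0.018 to 0.14). It was lost with DESeq2 (0.052), after thinning (0.11), and without mutant library 2 (0.061) or 3 (0.14) or line library 2 (0.10) or 3 (0.057).

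Set side by side, the effect in the knockout minus the effect in the C91A mutant was 0.29 ± 0.18 for Acta1, -0.16 ± 0.12 for Acta2, -0.15 ± 0.08 for Tagln and -0.09 ± 0.06 for Tpm1, on the log2 scale. Myl9 and Cnn1 had -0.41 ± 0.17 and -0.34 ± 0.18, and Tpm2 had -0.60 ± 0.09, its effect being 0.20 in the knockout and 0.80 in the mutant. Myl3 had 1.18 ± 0.22, with an effect of 1.18 in the knockout and 0.00 in the mutant. Actc1 and Actg2 had 0.07 ± 0.46 and -1.43 ± 1.21, too wide to order at these counts. The end levels of Acta1, Acta2, Tagln, Myl9, Cnn1, Tpm1 and Tpm2 were higher in every C91A mutant library than in any knockout library, and the untreated C91A line was likewise above the untreated knockout line for these 7. The same held for Myl3 and, on few counts, for Actc1, while the Actg2 libraries overlapped in both comparisons.

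The untreated lines had no 4-hydroxytamoxifen and, like all groups, received emricasan. In the untreated knockout line, against wild type, 8 of the 10 genes were lower in all libraries and 0 were higher, beside 25.4% and 24% of all genes. Its low values helped to choose the set, so the differences are described with no test and nothing is read from the count. The log2 difference was -1.76 ± 0.15 for Myl3, where Pth1r had -1.66 ± 0.12. It was -0.50 ± 0.11 for Acta2 and -0.45 ± 0.18 for Acta1, and with libraries thinned to equal depth it was -1.01 and -0.89. Tpm1 and Cnn1 had -0.47 ± 0.04 and -0.47 ± 0.13, Tpm2 had -0.28 ± 0.06, Tagln had -0.25 ± 0.06 and Actc1, on few counts, -1 ± 0.64. The libraries of Actg2 and Myl9 overlapped between the groups, at -0.69 ± 0.67 and -0.06 ± 0.13. Thinning to equal depth also moved Cnn1 to -0.86 and Actg2 to -1.5. A low value in this line raises the knockout difference.

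In the untreated C91A line 5 of the 10 were called higher than wild type and 1 lower, beside 13.4% and 14.2% of all genes. Acta1 rose by 1.35 ± 0.14 (adjusted p = 1e-09), Tpm1 by 0.42 ± 0.04 (adjusted p = 4.2e-10) and Tagln by 0.30 ± 0.06 (adjusted p = 5e-05). Pcsk7, with which Tagln shares transcript words, rose by 0.46 ± 0.09 (adjusted p = 7.2e-05) in the same comparison. Acta2 rose by 0.45 ± 0.10 (adjusted p = 0.00039), and by 0.24 with libraries thinned to equal depth, where the call was lost (adjusted p = 0.4). Myl9 rose by 0.43 ± 0.13 (adjusted p = 0.011), a call lost without line library 1 (0.077) or wild-type library 1 (0.055) or 3 (0.061). Actg2 was the one called lower, on 3 counts in the line and 19 in wild type (adjusted p = 0.049), in 5 of 12 settings with an adjusted p from 0.034 to 0.21. The Actg2 call was lost without any single one of wild-type libraries 1 and 3 or the 3 line libraries. Actc1, Myl3, Cnn1 and Tpm2 did not pass, at 0.83, 0.15, -0.16 and 0.11. The same wild-type libraries are the base of the double knockout over wild type and of the untreated knockout line over wild type.

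The rest of the pathway was taken from 5 lists of 78 genes, of which 65 could be tested. SRF itself moved little. Srf was at a log2 change of -0.17 ± 0.06 in the double knockout over the knockout (adjusted p = 0.015), -0.10 ± 0.06 in the knockout over its line (adjusted p = 0.15) and 0.22 ± 0.06 in the C91A mutant over its line (adjusted p = 0.0012). Mrtfa had 0.33 ± 0.08 (adjusted p = 0.00052), -0.12 ± 0.08 (adjusted p = 0.19) and 0.23 ± 0.07 (adjusted p = 0.008) in the same comparisons, and Mrtfb had 0.05 ± 0.08 (adjusted p = 0.61), 0.27 ± 0.08 (adjusted p = 0.0043) and 0.65 ± 0.08 (adjusted p = 3.5e-09). Of the 10 genes for SRF and its cofactors, 4 were called higher and 4 lower in the double knockout over the knockout, 4 and 1 in the knockout, and 9 and 0 in the C91A mutant. Among all genes the called shares were 32.6% higher and 30.6% lower, 31.3% and 30.3%, and 28.6% and 26.4% in these 3 comparisons. Tgfb1i1, a focal adhesion protein that acts as a coactivator, stood out with -1.63 ± 0.14, 1.83 ± 0.14 and 1.94 ± 0.14 (adjusted p = 3.2e-13, 9.8e-15 and 7.7e-16). Fhl1, a LIM-domain protein of muscle, had -0.55 ± 0.06, 0.88 ± 0.06 and 1.17 ± 0.06, all called.

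Among 25 other smooth muscle and actin-bundle genes, 2 were called higher and 19 lower in the double knockout over the knockout (median -0.53), 20 and 2 in the knockout over its line (0.53), and 21 and 1 in the C91A mutant over its line (0.73). The median of all genes was within 0.034 of 0 in each. Cald1, caldesmon, which regulates myosin on thin filaments, had -0.74 ± 0.05, 1.32 ± 0.05 and 1.52 ± 0.05. Lpp, a focal adhesion protein, had -1.37 ± 0.07, 1.42 ± 0.07 and 1.17 ± 0.07. Des, the muscle intermediate filament desmin, had the opposite signs, with 0.85 ± 0.12, -1.55 ± 0.11 and -1.10 ± 0.09, every one of these 9 values passing the test. Of the 5 non-muscle actin and myosin genes, 4 fell and 1 rose in the double knockout over the knockout, and 4 rose and 1 fell in both other comparisons. The abundant cytoplasmic actin Actb had -0.48 ± 0.04, 0.33 ± 0.04 and 0.28 ± 0.04, and the non-muscle myosin heavy chain Myh9 had -0.84 ± 0.05, 0.64 ± 0.05 and 0.86 ± 0.05. The exception was Myh14, another non-muscle heavy chain, with 1.23 ± 0.10, -2.11 ± 0.09 and -1.53 ± 0.08.

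Striated sarcomere genes had medians of the opposite sign to those of the 10. Of 24 listed, 18 could be tested, of which 12 were called higher and 1 lower in the double knockout over the knockout (median 1.48), and 2 higher and 11 lower in the knockout over its line (median -1.28) and in the C91A mutant over its line (median -0.85). Tnnc1, troponin C of slow and cardiac muscle, had -2.41 ± 0.34, 1.48 ± 0.29 and 1.43 ± 0.20. The embryonic myosin heavy chain Myh3 had 2.36 ± 0.33, -2.47 ± 0.31 and -1.71 ± 0.18. Of 14 muscle transcription factors only 7 could be tested, of which 5 rose and 2 fell in the double knockout over the knockout, 5 and 1 in the knockout, and 3 and 0 in the C91A mutant. Gata6, a factor of endoderm and heart, had 1.91 ± 0.19, 1.01 ± 0.25 and 1.15 ± 0.22, and Mef2d had -0.76 ± 0.05, 0.51 ± 0.05 and 0.17 ± 0.04.

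**Figure D4:**
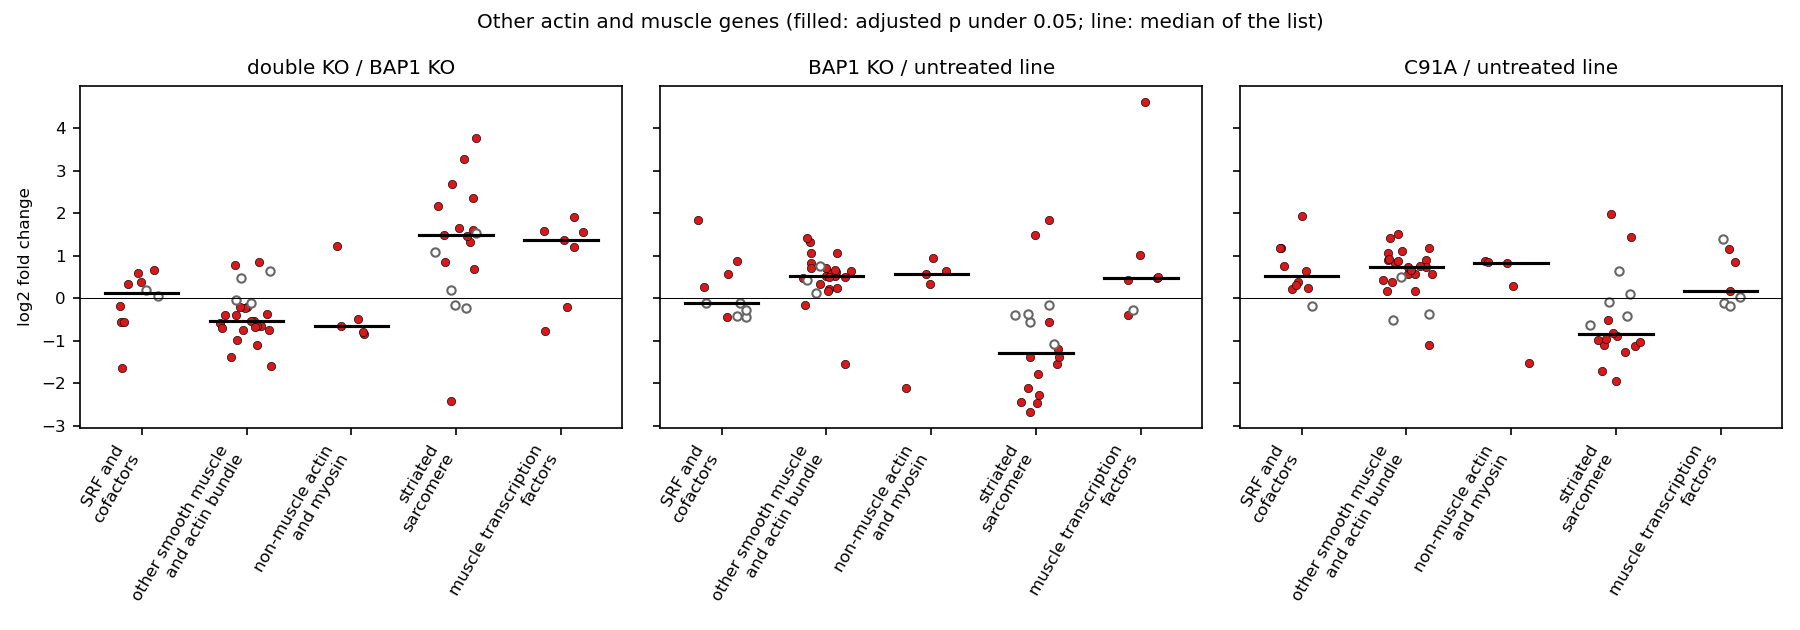
Log2 fold changes (vertical axis) of the tested genes of the 5 pathway lists (horizontal axis), for the double knockout over the knockout, the knockout over its line and the C91A mutant over its line; points are genes, filled where the adjusted p is under 0.05, and lines are medians. Other smooth muscle and actin-bundle genes have medians of -0.53, 0.53 and 0.73, and striated sarcomere genes 1.48, -1.28 and -0.85.

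Markers of the labelled cell type and of other cells that hold contractile proteins were summed. The embryonic stem cell marker Pou5f1 averaged 656 normalized RPKM in the double knockout, 618 in the knockout, 729 in its untreated line, 441 in the C91A mutant, 642 in the untreated C91A line and 661 in wild type. Of 8 stem cell markers, 6 rose and 1 fell in the double knockout over the knockout, 1 rose and 7 fell in the knockout over its line, and 8 fell in the C91A mutant over its line. Among all genes the called shares in these comparisons were 32.6% higher and 30.6% lower, 31.3% and 30.3%, and 28.6% and 26.4%. These shares also stand beside the called counts of the marker lists that follow, and counts near them are not read as marker changes. Their sum was 2210 to 2380 in the double knockout, 1680 to 1740 in the knockout, 2220 to 2320 in its line, 1300 to 1330 in the C91A mutant, 1860 to 2080 in the untreated C91A line and 1900 to 1980 in wild type. The sum was lowest in the C91A mutant and the knockout, where the summed level of the 10 genes was highest, at 616 to 689 and 340 to 373. The part of these markers in the result was not tested.

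Of 10 fibroblast markers, 8 could be tested. They were called 5 higher and 2 lower in the double knockout over the knockout, 4 and 0 in the knockout over its line, and 5 and 1 in the C91A mutant over its line. Their sum was 41.8 to 46.3 in the double knockout, 48.7 to 51.1 in the knockout, 33.8 to 35.3 in its line, 39.8 to 43.6 in the C91A mutant, 31.3 to 33.6 in the untreated C91A line and 35.8 to 39.0 in wild type. Most of the sum was Fbln1, a matrix protein, at a mean of 25.9 in the double knockout, 37.7 in the knockout and 27.5 in its line. The fibrillar collagen Col1a1 averaged 7.29 in the double knockout, 4.06 in the knockout and 2.23 in its line, and Col1a2 averaged 4.83, 3.41 and 1.22 in the same groups. Both collagens rose in the double knockout over the knockout (0.86 ± 0.08 and 0.50 ± 0.10), in the knockout over its line (0.84 ± 0.09 and 1.48 ± 0.11) and in the C91A mutant over its line (1.26 ± 0.09 and 2.32 ± 0.11). Dcn, the matrix proteoglycan decorin, averaged 0.392 in the double knockout, 0.825 in the knockout and 0.169 in its line, and Col3a1 averaged 0.702, 0.174 and 0.124. Fap, which marks activated fibroblasts, was at 0 in the double knockout, the knockout and both untreated lines, and Lum was at 0 in the double knockout and at most 0.0214 on average elsewhere. The mural and smooth muscle markers, 6 in number with 5 tested, summed to 8.16 to 9.55 in the double knockout, 4.33 to 5.45 in the knockout, 11.6 to 13.1 in its line, 12 to 14.8 in the C91A mutant, 20.6 to 22.8 in the untreated C91A line and 24.5 to 25.5 in wild type, most of it Des. They were called 3 higher and 0 lower in the double knockout over the knockout, 1 and 1 in the knockout, and 3 and 1 in the C91A mutant. Lmod1, a smooth muscle actin nucleator, averaged 0.641 in the knockout and 0.345 in its line, and 2.26 in the C91A mutant and 0.855 in its line. It rose in both (0.84 ± 0.25 and 1.42 ± 0.17), and did not pass in the double knockout over the knockout (-0.10 ± 0.24, adjusted p = 0.73). The mural receptor Pdgfrb averaged 0.864 in the double knockout, 0.271 in the knockout and 0.271 in its line. In the C91A mutant it averaged 1.32 and in its line 0.803. Pdgfrb rose in the double knockout over the knockout (1.69 ± 0.21) and in the C91A mutant over its line (0.72 ± 0.15). The pericyte proteoglycan Cspg4 rose in the same comparisons (1.20 ± 0.25 and 1.31 ± 0.26). Neither was called in the knockout over its line, where Cspg4 averaged 0.182 in the knockout and 0.195 in the line. Myh11, the defining myosin of mature smooth muscle, averaged 0.231 or less in each group, rose by 1.60 ± 0.35 in the double knockout over wild type, and did not pass in the 3 comparisons above. Rgs5 was at 0 in the knockout.

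The cardiac and skeletal markers, 8 with 5 tested, summed to 6.22 to 8.89 in the double knockout, 2.07 to 3.76 in the knockout, 11.1 to 11.6 in its line, 4.11 to 5.95 in the C91A mutant, 7.76 to 9.79 in the untreated C91A line and 8.99 to 11.2 in wild type. Most of the sum was Tnni3 and Myl7 in each group. The cardiac and skeletal markers were called 4 higher and 0 lower in the double knockout over the knockout, 1 and 3 in the knockout, and 1 and 2 in the C91A mutant. The 4 endothelial markers summed to 30.0 to 31.2, 25 to 27.3, 20.2 to 21.1, 20.7 to 22.0, 31.1 to 32.0 and 22.4 to 24.9 in the same order of groups, and were called 2 higher and 1 lower, 3 and 0, and 2 and 2. Most of this sum was Pecam1 in each group, at a mean of 27.5 in the double knockout, 23.1 in the knockout and 21.6 in wild type. The highest group means were 0.384 for Cdh5 and 1.02 for Kdr in the C91A mutant, and 2.86 for Tek in the double knockout. The part of these marker lists in the results for the 10 genes was not tested.

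The profiles over the 18 libraries place Acta1 near Tagln, at a root mean square distance of 0.69 on the centred log2 CPM scale, and further from Acta2, at 1.27. Among 11899 genes outside the set, those nearest to Acta1 were Septin4 at 0.77 and Samd4 and Jph2, both at 0.82. They had log2 changes of -1.51 ± 0.14, -0.98 ± 0.13 and -0.78 ± 0.15 in the double knockout over the knockout, where Acta1 had -2.95 ± 0.14. Those nearest to Acta2 were Cyp1b1 at 0.65, Prss23 at 0.69 and Thbs1, the matrix protein thrombospondin, at 0.70. They had 0.11 ± 0.12, -0.46 ± 0.13 and -0.33 ± 0.06 in the double knockout over the knockout, and 1.73 ± 0.13, 1.04 ± 0.14 and 1.06 ± 0.06 in the double knockout over wild type, where Acta2 had 2.85 ± 0.08. All of these points share their libraries, and the measure describes likeness of level only. Acta1 and Acta2 were chosen in part because they differ in the double knockout. The distance between them was therefore partly set by the choice, and nothing is read from it.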

How the data were processed

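Reads were single, 50 bases, from unstranded-kit libraries of polyadenylated RNA, and went through GSNAP against GRCm38, per the submitters' processing notes. The deposited counts are the authors' uniquely aligned reads per gene model. The deposited normalized RPKM values are the authors' size-factor-adjusted RPKM. The sources used here do not say whether counting used strand. Genes were named from RefSeq by Entrez identifier (31049 of 36528).

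Counts were filtered with filterByExpr, scaled by TMM and tested with edgeR 4.0.16 (limma 3.58.1, R 4.3.3), 1 mean per group over all 18 libraries, with Benjamini-Hochberg adjustment over 16875 genes. A standard error is the log2 fold change over the root of F. The code was tested on simulated data. Replicates carry no numbers in the labels and were numbered in order of submission. Within groups, every library pair was further apart than sampling noise (chi-square per degree of freedom 1.77 to 5.78). Alternatives were DESeq2 1.42.0, other scaling and filters, libraries thinned to the smallest one, only the groups compared, and leaving out each library.

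The members and gene lists were chosen with earlier results of these data known, and 1 of the lists is not reported here. The text names all members, Srf, Mrtfa and Mrtfb, up to 2 called genes per direction, list and comparison with mean log2 CPM of at least 0, and the 3 nearest profiles of Acta1 and Acta2 with mean log2 CPM of at least 2. A planned test of the members in the untreated knockout line over wild type was not used, since that line entered their choice. Marker genes, Pou5f1, Actb, Actg1, Pcsk7 and Pth1r were named after their values were seen. Words of 50 bases were compared between transcripts of GENCODE M21.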

Additional observations from a re-analysis of the deposited data

Results flagged for a closer look

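None of the 10 genes was tested for a difference between the knockout effect and the C91A effect, since the knockout chose them. Of 65 tested genes of the pathway lists, 4 were called higher and 27 lower for the knockout effect minus the C91A effect (edgeR quasi-likelihood test of the difference itself, adjusted p under 0.05), where 12.2% of all genes were called higher and 13.8% lower. The 20 genes that follow are those of the 27 and 4 that the naming rule gives, which names called genes at the ends of each list and so sets their number. Each value is the log2 effect in the knockout minus that in the C91A mutant. Srf, Mrtfa and Mrtfb differed by -0.31 (-0.10 in the knockout and 0.22 in the C91A mutant), -0.35 (-0.12 and 0.23) and -0.37 (0.27 and 0.65). Fhl1 differed by -0.29 (0.88 and 1.17). Elk3, a ternary complex factor that partners SRF, differed by -0.77 (-0.45 in the knockout and 0.32 in the C91A mutant). Fhl2 differed by -1.18 (-0.41 and 0.76). The transgelin paralog Tagln3 differed by 1.43 (1.07 and -0.36), and the calponins Cnn3 by 0.26 (0.65 and 0.39) and Cnn2 by -0.37 (0.50 and 0.88). The thin-filament proteins Smtn and Cald1 differed by -0.32 (-0.15 and 0.18) and -0.20 (1.32 and 1.52). Des differed by -0.44 (-1.55 and -1.10). The non-muscle myosins Myh9, Myh10 and Myh14 differed by -0.22 (0.64 and 0.86), -0.26 (0.57 and 0.83) and -0.58 (-2.11 and -1.53). The cardiac genes Myh6 and Myl7 differed by -1.17 (-2.43 and -1.26) and -2.27 (-2.68 and -0.41). The factors Gata4, Mef2d and Mef2a differed by 0.54 (0.44 and -0.11), 0.34 (0.51 and 0.17) and -0.38 (0.47 and 0.85).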

How the results depend on the processing

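No paired analysis was possible because the labels give replicates no numbers. Under DESeq2, under a fit of only the groups compared and with thinned libraries, 0 in place of 1 of the 10 genes was called lower in the untreated C91A line against wild type; leaving out 1 library gave 0 to 1. Thinning to the smallest library also left 15 in place of 27 pathway genes called lower for the knockout effect minus the C91A effect and 4 in place of 9 called lower in the untreated C91A line against wild type, where leaving out 1 library gave 5 to 9, with 5 without line library 3. Leaving out 1 library gave 1 to 2 of the 10 genes with all libraries higher in the double knockout than in the knockout. The sign turned with thinning for Acta2 in the difference of effects (0.04) and Actc1 in the double knockout over wild type (-0.53). Leaving out 1 library put Myl3 in the C91A mutant over its line at -0.08 to 0.09 (above 0 without line library 1 or mutant library 3) and Myl3 in the untreated C91A line over wild type at 0.00 to 0.26 (at 0.00 without wild-type library 3). The cause was not tested. Of the members' values under other settings, 385 kept their direction and call or moved by less than the replicate spread, 18 moved more, 2 were counted as turned in sign and 5 lost a call. With a library left out these were 454, 11, 3 and 12. For an untested value, a turn in sign was counted only where the main value exceeded the replicate spread. Other turns in sign are therefore among the values counted as kept or moved. Among these is Actg2 in the knockout over its line, at 0.94 and at -0.60 without knockout library 1. Depth limits Actc1 and Actg2, with 193 and 121 counts in all libraries.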

Other observations

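The cytoplasmic gamma actin Actg1, abundant in most cells, averaged 3.02 normalized RPKM in the double knockout, 4.65 in the knockout and 3.92 in wild type, where Actb averaged 660, 923 and 793. Of the 50-base words of Actg1 transcripts, 45.6% also occur in transcripts of other genes, among them its pseudogenes. The deposited counts hold uniquely aligned reads only. Tagln, with 47.6% of its words shared, averaged 45.9 in the double knockout, 183 in the knockout and 44.6 in wild type. The part of shared words in the Actg1 level was not tested. For Acta1 and Acta2 the shared words were 2.02% and 0.326%.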
